A study of Rattus norvegicus with 12 samples.

Results

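A set of 10 genes of the PERK and ATF4 stress response was followed in islets of rat offspring born to lean dams or to dams with gestational diabetes (GDM). They were the rows of the deposited table whose symbol was Eif2ak3, Atf4, Ddit3, Atf3, Trib3, Ppp1r15a, Chac1, Asns, Slc7a11 or Ddit4. All 10 were found, once each, among 17407 genes, and all 10 passed the filter on low values that left 12339 genes for testing. Islets came from Sprague-Dawley offspring at 15 weeks of age. Each diet was given to 6 dams. Lean dams ate LF food (low-fat, 10% fat) and GDM was induced with HFS food (high in fat and sucrose, 45% fat), both from 6 weeks before mating until the pups were weaned. Pups were then kept on LF or HFS food for 12 weeks, which gave 4 groups of 3 libraries: Lean-LF and Lean-HFS from lean dams, and GDM-LF and GDM-HFS from GDM dams. The model is a diet given to the dam before, during and after pregnancy, so gestation, suckling and the diet itself cannot be told apart. Litter and sex were not given in the labels used here, and p-values therefore measure only the spread between these 12 samples.

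PERK, the product of Eif2ak3, is a kinase in the membrane of the endoplasmic reticulum that senses unfolded protein and phosphorylates the translation factor eIF2α. Phosphorylated eIF2α slows general protein synthesis while the mRNA of ATF4 is translated more efficiently, and ATF4 then switches on genes for amino acid supply, redox balance and feedback. ATF4 can be raised by other eIF2α kinases too, such as the one that senses amino acid shortage. Beta cells make insulin in large amounts and depend on PERK for keeping secretory load in check. The pathway acts largely through phosphorylation and translation, which RNA levels do not measure.

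The RefSeq promoter table (build GRCr8) held 9 of the 10 genes, Atf3 being the exception. The 200 bases before the start site are shown for Chac1 and Asns, the 2 genes whose RNA fell after GDM of the dam, and for Trib3, which shares a motif with Chac1. They lie at chr3:126795931-126796130, plus strand (Chac1), chr4:36769416-36769615, minus strand (Asns) and chr3:161275534-161275733, minus strand (Trib3). Each is written 5′ to 3′ in the direction of the gene. Capitals mark matches of TGATGNAA, the form of the CHOP-ATF4 composite element searched, here read on the opposite strand.
Chac1: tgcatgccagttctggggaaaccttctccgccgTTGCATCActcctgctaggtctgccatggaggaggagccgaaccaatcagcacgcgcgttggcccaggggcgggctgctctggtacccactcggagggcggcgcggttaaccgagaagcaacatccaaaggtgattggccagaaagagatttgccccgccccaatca
Asns: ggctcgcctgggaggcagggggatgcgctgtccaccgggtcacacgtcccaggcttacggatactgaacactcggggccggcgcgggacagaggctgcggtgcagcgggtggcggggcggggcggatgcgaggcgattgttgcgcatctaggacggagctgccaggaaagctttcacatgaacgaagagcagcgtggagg
Trib3: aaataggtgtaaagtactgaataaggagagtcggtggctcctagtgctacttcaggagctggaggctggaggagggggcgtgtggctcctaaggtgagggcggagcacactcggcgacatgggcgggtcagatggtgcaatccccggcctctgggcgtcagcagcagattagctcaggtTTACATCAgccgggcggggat
TGATGNAA was searched on both strands of 300 bases, from 250 before to 50 after the start site, and was found in 2 of the 9 promoters against 3.98% of all 33469 in the table. In Chac1 it lay 167 to 160 bases and in Trib3 21 to 14 bases before the start site. The cyclic AMP response element TGACGTCA was found in 1 of the 9, Ppp1r15a, 66 to 59 bases before the start site, against 1.83% of all promoters. CCAAT followed after 9 bases by CCACG, the endoplasmic reticulum stress element, was found in 0 of the 9 and in 0.0657% of all. These matches describe letters in a window and not binding.

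The deposited values were read counts scaled to library depth and are given here as scaled values, after a further division by a library factor of 0.83 to 1.27. The libraries held 11469290 to 27492858 gene reads, and a scaled value of 1 stood for 1.96 to 5.02 reads before that division. Each of the 10 genes had at least 121 reads in every library. All 7 beta cell markers were tested, with none at 0. Their summed scaled value was 1303860 to 1412900 in Lean-LF and 1364650 to 1581080 in Lean-HFS. After GDM it was 1238730 to 1741140 on LF and 1672650 to 2255350 on HFS diet. Alpha cell markers (5 of 5 tested, none at 0) summed to 31697 to 67814 in Lean-LF and 48555 to 72855 in Lean-HFS. After GDM they summed to 27047 to 103333 on LF and 90139 to 202969 on HFS diet. For both sums the 3 GDM-HFS libraries lay above every lean library, and the part of these markers in the results was not tested. Gene by gene, 4 of the 7 beta cell markers were lower for GDM averaged over diets (median log2 difference −0.26), beside 47.3% of all genes. Of these 7, 1 passed as lower, beside 5.43% of all tested genes. On HFS diet 3 of the 7 were lower (median 0.02). Of the alpha cell markers 4 of 5 were higher for GDM averaged over diets (median 0.34), and none passed. Acinar markers (19 of 19 tested, none at 0) summed to 25724 to 76851 in Lean-LF and 39090 to 220383 in Lean-HFS. They summed to 34546 to 608252 in GDM-LF and 104280 to 220066 in GDM-HFS, and the highest value was GDM-LF 2. Gene by gene, 18 of the 19 acinar markers were higher and 1 lower for GDM averaged over diets (median 0.99). Of these 19, 1 passed as higher, beside 6.13% of all tested genes. For the weaning diet averaged over dams 19 of the 19 were higher on HFS (median 0.81), and none passed. Ribosomal RNA (rRNA) took 23.1% of gene reads on average after lean dams and 5.44% after GDM dams (two-sided exact permutation p = 0.0216, 6 against 6 libraries). Lean-LF 3 held 1.84%, the lowest of the 12, against 11.3 to 39.0% in the other lean libraries and 1.84 to 8.55% after GDM. The same library had the lowest lean values of Chac1 (244) and Asns (874), and without it 2471 genes passed for GDM of the dam in place of 1426. The length measure is each library's median log2 deviation of transcripts under 1000 bases less that of transcripts over 4000 bases. It averaged −0.35 after lean and 0.34 after GDM dams (exact permutation p = 0.00216, the smallest that 924 splits allow). In bulk islets, fewer cells of a type and less RNA per cell cannot be told apart.

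Levels of the 10 genes spanned a wide range when compared per kilobase of transcript. Atf4 was the most abundant with a mean scaled value of 2145 per kilobase over the 12 libraries, above 98.4% of the tested genes. Asns (452), Ddit3 (349.7), Ppp1r15a (245), Chac1 (174), Trib3 (154) and Atf3 (105) followed in scaled value per kilobase. Eif2ak3 (97.1), Ddit4 (73.7) and Slc7a11 (19.2) had the lowest levels per kilobase, and Slc7a11 exceeded 36.7% of the tested genes. Neighbours in this order from Asns to Ddit4 were closer to each other than the sum of their SDs over libraries, which were 116 for Asns, 98.8 for Ddit3, 67.6 for Chac1 and 16.1 for Eif2ak3. Atf3 varied most, by 13.0-fold between its lowest and highest library, and Eif2ak3 least, by 1.74-fold.

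**Figure D1:**
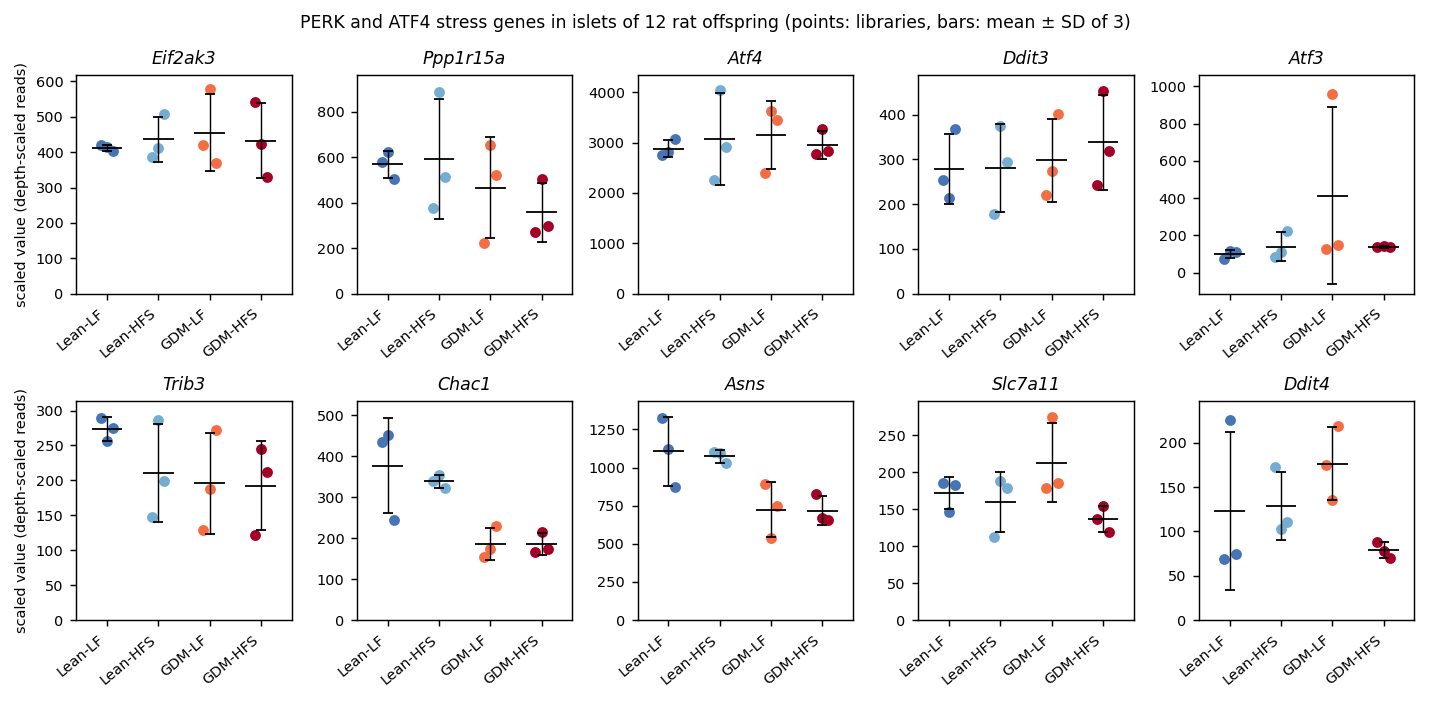
Scaled value (depth-scaled reads, linear axis) of the 10 genes in each of the 12 libraries by group, with horizontal lines at the mean and bars of ± SD (n = 3). All 6 GDM libraries lie below all 6 lean libraries for Chac1 and 5 of 6 lie below the lowest lean library for Asns, while 1 GDM-LF library reaches 962 for Atf3.

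GDM of the dam, averaged over the weaning diets, asks whether islets of adult offspring differed between GDM dams and lean dams. Chac1 and Asns fell, none of the 10 rose and 8 did not pass the threshold of 0.05 on the adjusted p (limma, Benjamini-Hochberg over all 12339 genes). Of all tested genes 11.6% passed in this comparison, 5.43% lower and 6.13% higher after GDM. The median log2 difference of the 10 genes was 0.03, beside 0.03 for all genes, and 4 of 10 were lower after GDM beside 47.3% of all genes. The 2 genes that fell thus stood in a set whose other members lay on both sides of 0.

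The sensor and the transcription factors did not pass. Eif2ak3, the gene of PERK itself, measured 419, 415 and 403 in Lean-LF, 386, 413 and 509 in Lean-HFS, 420, 578 and 369 in GDM-LF and 542, 425 and 331 in GDM-HFS. The 4 groups overlapped, and the log2 difference for GDM was 0.04 ± 0.144 (SE, 95% interval −0.27 to 0.35, limma adjusted p = 0.866). Atf4, the main effector, measured 2745, 2811 and 3069 in Lean-LF, 2256, 4048 and 2904 in Lean-HFS, 2386, 3633 and 3455 in GDM-LF and 2769, 3266 and 2822 in GDM-HFS. Every GDM value of Atf4 lay inside the lean range, with a log2 difference of 0.05 (95% interval −0.31 to 0.40, limma adjusted p = 0.870).

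Ddit3 encodes CHOP, the factor that joins ATF4 under lasting stress and is tied to cell death. Its scaled values were 253, 215 and 367 in Lean-LF, 178, 374 and 293 in Lean-HFS, 220, 273 and 401 in GDM-LF and 242, 452 and 319 in GDM-HFS. The highest value belonged to GDM-HFS 2 and the groups overlapped (log2 difference 0.18, 95% interval −0.30 to 0.66, limma adjusted p = 0.603). The Ddit3 entry overlaps that of Mars, a tRNA synthetase gene, and both strands were counted, so their reads cannot be told apart where they overlap.

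Atf3, a repressor of the same family that is also an immediate early gene, measured 73.8, 114 and 110.5 in Lean-LF, 83.4, 111 and 226 in Lean-HFS, 128, 962 and 151 in GDM-LF and 136, 145 and 137 in GDM-HFS. GDM-LF 2 stood apart from the other 11 libraries, which lay between 73.8 and 226. The log2 difference for GDM was 0.77 ± 0.414 (95% interval −0.12 to 1.67, limma adjusted p = 0.221) and became 0.31 without GDM-LF 2 (adjusted p = 0.403). Fitted with the acinar level of each library, it was 0.10. The same library had the highest mean log2 level of 23 immediate early genes, 8.19 against 5.77 to 6.42 elsewhere, and the highest mean log2 level of the acinar markers, 13.6. The part of these in the Atf3 value was not tested beyond that.

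Both genes that fell encode enzymes. Chac1 encodes a cytosolic enzyme that degrades glutathione and is among the most responsive targets of ATF4 and CHOP. Its entry (NM_001173437) lies at chr3:117711150-117714352 on the plus strand of build rn5. Its scaled values were 435, 453 and 244 in Lean-LF, 340, 354 and 322 in Lean-HFS, 154, 174 and 230 in GDM-LF and 166, 216 and 175 in GDM-HFS. All 6 GDM libraries lay below all 6 lean libraries, which held for 2.32% of the tested genes, while 2.8% had all GDM libraries above. Chac1 fell by 0.93 ± 0.162 on the log2 scale (SE, 95% interval −1.28 to −0.58), a 1.90-fold lower level (limma adjusted p = 0.0116). With the rRNA share as a covariate the log2 difference was −0.56 and did not pass (adjusted p = 0.990), and without the 3 libraries whose titles carry the letter K it was −0.75 (adjusted p = 0.195). In neither fit did any of the tested genes pass. The 3 GDM libraries without that letter measured 166, 216 and 230 for Chac1, against 244 to 453 in the lean libraries. How many of all genes keep these libraries apart in the same way was not counted. The letter K occurs only among GDM libraries, so letter and dam overlap in part, and the part of the letter was not tested.

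Asns, asparagine synthetase, makes asparagine from aspartate and is a classic target of the amino acid response. Its entry (NM_013079) lies at chr4:33608891-33626245 on the minus strand of build rn5. It measured 1321, 1120 and 874 in Lean-LF, 1100, 1093 and 1027 in Lean-HFS, 893, 536 and 745 in GDM-LF and 828, 667 and 656 in GDM-HFS. In all, 5 of the 6 GDM libraries lay below the lowest lean library, and GDM-LF 1 was the exception. The share of all genes with such an order was not counted, and the order is no separate evidence beside the call on the same values. Asns fell by 0.60 ± 0.144 on the log2 scale (95% interval −0.91 to −0.29), a 1.52-fold lower level (limma adjusted p = 0.0223). This call was lost with the acinar level as a covariate (−0.47, adjusted p = 0.0679), with the rRNA share (−0.44, 0.990) and without the K libraries (−0.54, 0.197). It was also lost with any 1 of Lean-LF 1, Lean-LF 2, Lean-HFS 1, GDM-HFS 2 or GDM-HFS 3 left out (adjusted p 0.0505 to 0.0749), with differences of −0.53 to −0.59.

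Slc7a11, the cystine and glutamate exchanger that feeds glutathione synthesis, measured 185, 147 and 183 in Lean-LF, 113, 188 and 178 in Lean-HFS, 178, 274 and 185 in GDM-LF and 137, 154 and 119 in GDM-HFS. GDM-LF 2 was the only GDM library above the lean range (log2 difference for GDM 0.05, 95% interval −0.30 to 0.39, limma adjusted p = 0.869). Slc7a11 had the lowest level of the 10 genes per kilobase.

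Of the feedback genes, Ppp1r15a encodes GADD34, which brings a phosphatase to eIF2α and restores translation. It measured 578, 624 and 505 in Lean-LF, 378, 885 and 512 in Lean-HFS, 225, 656 and 520 in GDM-LF and 270, 506 and 299 in GDM-HFS. Of the 6 GDM libraries 3 lay below the lowest lean one, and the log2 difference was −0.55 ± 0.268 (95% interval −1.13 to 0.03, limma adjusted p = 0.180). Trib3, a pseudokinase induced by ATF4 and CHOP that restrains both, measured 290, 257 and 275 in Lean-LF, 148, 286 and 199 in Lean-HFS, 128, 187 and 272 in GDM-LF and 121, 245 and 212 in GDM-HFS. In Trib3, 2 of the 6 GDM libraries lay below the lean range, with a log2 difference of −0.34 (95% interval −0.81 to 0.13, limma adjusted p = 0.306). Ddit4 encodes REDD1, an inhibitor of mTORC1 signalling that also answers to hypoxia and glucocorticoids. It measured 68.7, 226 and 74.9 in Lean-LF, 173, 102 and 111 in Lean-HFS, 175, 136 and 219 in GDM-LF and 88.1, 78.3 and 69.8 in GDM-HFS. Lean-LF 2 stood above the other Lean-LF libraries, and the difference for GDM was 0.02 (95% interval −0.55 to 0.59, limma adjusted p = 0.964).

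**Figure D2:**
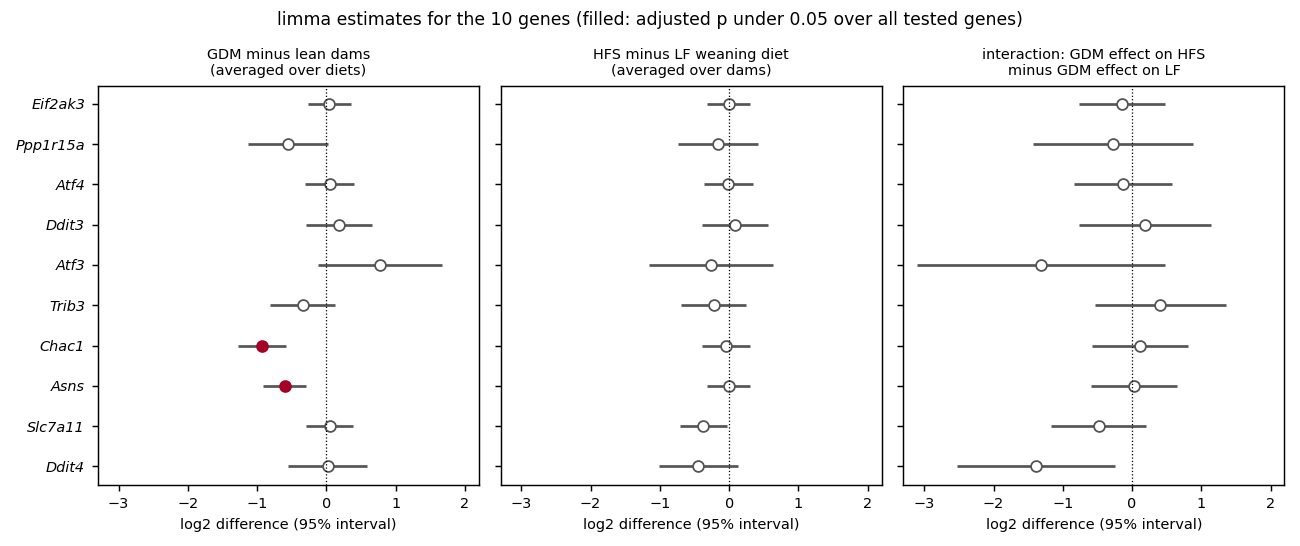
Log2 difference (points, with lines for the 95% interval from limma) of the 10 genes for GDM of the dam, the weaning diet and their interaction. Only Chac1 (−0.93) and Asns (−0.60) are filled, meaning an adjusted p under 0.05 over all 12339 genes, and both for GDM of the dam.

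When the diets were taken singly, 0 of the 10 genes passed in limma. For GDM of the dam on LF diet 1.58% of all tested genes passed, and 3 of the 10 had an unadjusted p under 0.05. Chac1 differed by −0.99 on the log2 scale (limma adjusted p = 0.0501), Asns by −0.62 (0.0843) and Atf3 by 1.43 (0.142). On HFS diet 0.0081% of all tested genes passed, and 2 of the 10 had an unadjusted p under 0.05, Chac1 at −0.87 (adjusted p = 0.192) and Asns at −0.59 (0.227). With DESeq2 on the recovered reads 2 of the 10 passed on LF diet, where it called 925 genes higher and 759 lower in all. On HFS diet 1 of the 10 passed with DESeq2, where it called 196 genes higher and 56 lower. With edgeR 0 of the 10 passed on either diet. The difference between the diets in the GDM effect was 0.12 for Chac1 (95% interval −0.58 to 0.81) and 0.03 for Asns (95% interval −0.59 to 0.65), and neither passed.

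The HFS weaning diet of the offspring moved none of the 10 genes past the threshold. Averaged over dams, 0% of all tested genes passed in limma, with 611 at an unadjusted p under 0.05. DESeq2 called 2 genes and edgeR 0, none of them among the 10. Of the 10 genes 9 were lower on HFS, beside 51.2% of all genes, with a median log2 difference of −0.11 beside −0.01. The lowest p belonged to Slc7a11, at −0.37 ± 0.160 (95% interval −0.72 to −0.03, limma adjusted p = 0.883). Chac1 (−0.05) and Asns (−0.01), which fell after GDM, had diet differences with 95% intervals of −0.40 to 0.30 and −0.32 to 0.30.

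Within the offspring of lean dams 0% of all tested genes passed for the weaning diet in limma (269 at an unadjusted p under 0.05, DESeq2 1, edgeR 0), and 0 of the 10 had an unadjusted p under 0.05. Within the offspring of GDM dams 0% passed as well (1188 at an unadjusted p under 0.05, DESeq2 33, edgeR 0), and 2 of the 10, Ddit4 and Slc7a11, had an unadjusted p under 0.05. Ddit4 measured 69.8 to 88.1 in GDM-HFS and 136 to 219 in GDM-LF, a log2 difference of −1.14 ± 0.375 (limma adjusted p = 0.477). Slc7a11 measured 119 to 154 in GDM-HFS and 178 to 274 in GDM-LF, at −0.61 ± 0.227 (limma adjusted p = 0.504). How many of all genes keep these groups apart in the same way was not counted. For the interaction of dam and diet 0% of all tested genes passed (730 at an unadjusted p under 0.05, DESeq2 0, edgeR 0). Ddit4 was the 1 gene of the 10 with an unadjusted p under 0.05 there, at −1.38 (95% interval −2.52 to −0.24, limma adjusted p = 0.784). The Ddit4 and Slc7a11 differences are given as values, since neither passed once all genes were counted.

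Genes around the 10 were described by lists of known members, for GDM of the dam averaged over diets. The lists were chosen with earlier results of these data known, so a shared direction within a list is a description and no separate evidence. Each count stands beside all tested genes, of which 5.43% passed as lower and 6.13% as higher, 47.3% were lower and the median was 0.03. The 27 alternatives counted for each named gene were other settings of the fit and omissions of libraries. Amino acid supply comes first, since Asns belongs to it. Of 10 amino acid transporters 0 rose and 2 fell, Slc7a5 (log2 −0.70 ± 0.183, limma adjusted p = 0.0303), which carries large neutral amino acids, and the glycine transporter Slc6a9 (−0.70 ± 0.207, 0.0466). Of these transporters 8 of 10 were lower, with a median of −0.40. Slc7a5 passed in 14 and Slc6a9 in 10 of 27 alternatives. No transporter fell with no rescaling, with no trend, with the length trend removed, with the acinar level or in 6 of the omissions of single libraries. Among 13 genes of amino acid synthesis and one-carbon metabolism Pycr1, an enzyme of proline synthesis, fell (−0.79 ± 0.171, limma adjusted p = 0.0160), none rose and 7 of 13 were lower (median −0.05). Pycr1 passed in 23 of 27 alternatives. All 13 genes that charge or export tRNA (aminoacyl-tRNA synthetases and the exporter Xpot) were lower, with a median of −0.37 and differences from −0.59 to −0.05. Only the glycyl-tRNA synthetase Gars passed (−0.59 ± 0.145, limma adjusted p = 0.0244), and it did so in 18 of 27 alternatives. A count of 1 in 13 is near the share of all genes that passed as lower. By diet the median of the 13 was −0.47 on LF (13 of 13 lower) and −0.16 on HFS (10 of 13 lower). That difference was not tested for the list. Leaving out the K libraries left 9 of the 13 lower, with a median of −0.17.

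Among 9 tested signalling targets of ATF4, Sesn2, a stress-induced restrainer of mTORC1, fell by 0.95 ± 0.196 on the log2 scale (limma adjusted p = 0.0146), none rose and 6 of 9 were lower (median −0.22). Sesn2 passed in 23 of 27 alternatives. Atf5, a transcription factor whose mRNA is translated in the same way as that of ATF4, fell by 0.81 ± 0.170 (limma adjusted p = 0.0149). In Atf5 6 of 6 GDM libraries lay below the lean range, as in 2.32% of all tested genes. In the same list of 9 transcription factors Cebpd, a factor of the C/EBP family, rose by 1.06 ± 0.193 (limma adjusted p = 0.0122). Its 6 of 6 GDM libraries lay above the lean range, as in 2.8% of all tested genes. Both were named because they passed, so these orders are no separate evidence. Atf5 passed in 23 and Cebpd in 25 of 27 alternatives, and the other 7 factors did not pass. Of 16 genes of the eIF2 machinery, Eif2s1, which encodes eIF2α itself, rose by 0.69 ± 0.167 (limma adjusted p = 0.0236). Eif2ak1, the kinase that senses low heme, fell by 0.43 ± 0.0969 (0.0191). Eif2s1 passed in 17 and Eif2ak1 in 19 of 27 alternatives. Counts of 1 in 9 and 1 in 16 rest on 1 gene each. The other 14 did not pass, and the list median was 0.11. Of 5 tested genes linked to CHOP in oxidation and cell death none passed, and the lowest p belonged to Bcl2 (0.49, limma adjusted p = 0.266) and Tnfrsf10b (0.64, 0.318).

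The other arms of the unfolded protein response held 6 genes that fell of 22 tested, and none that rose (median −0.23, 16 of 22 lower). Atf6b (−0.86 ± 0.179, limma adjusted p = 0.0148) and Atf6 (−0.68 ± 0.156, 0.0200) encode the membrane-bound factors of the ATF6 arm. Syvn1 (−0.78 ± 0.180, 0.0204) and Herpud1 (−0.63 ± 0.180, 0.0408) serve the disposal of misfolded protein. The 6 genes became 2 with no rescaling or with the acinar level, 4 with the length trend removed or with no trend, and 0 without Lean-LF 1 or without Lean-LF 2. Of 27 alternatives Atf6b passed in 23, Atf6 and Syvn1 in 20 each and Herpud1 in 11. Immediate early genes, which mark acute handling or stimulation, held 2 of 23 that rose, Ier3 (0.99 ± 0.230, limma adjusted p = 0.0206) and Junb (0.88 ± 0.210, 0.0226), and none that fell. Ier3 passed in 21 and Junb in 19 of 27 alternatives. A count of 2 in 23 is near the share of all genes that passed as higher. The immediate early list had a median of 0.49, which came to 0.02 in a fit with the acinar level, to 0.06 without the K libraries and to 0.17 without GDM-LF 2. By diet the median was 1.07 on LF (21 of 23 higher, 1 passed) and −0.05 on HFS (9 of 23 higher, 0 passed), and that difference was not tested for the list. With the rRNA share as a covariate or without the K libraries no gene of these lists passed.

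**Figure D3:**
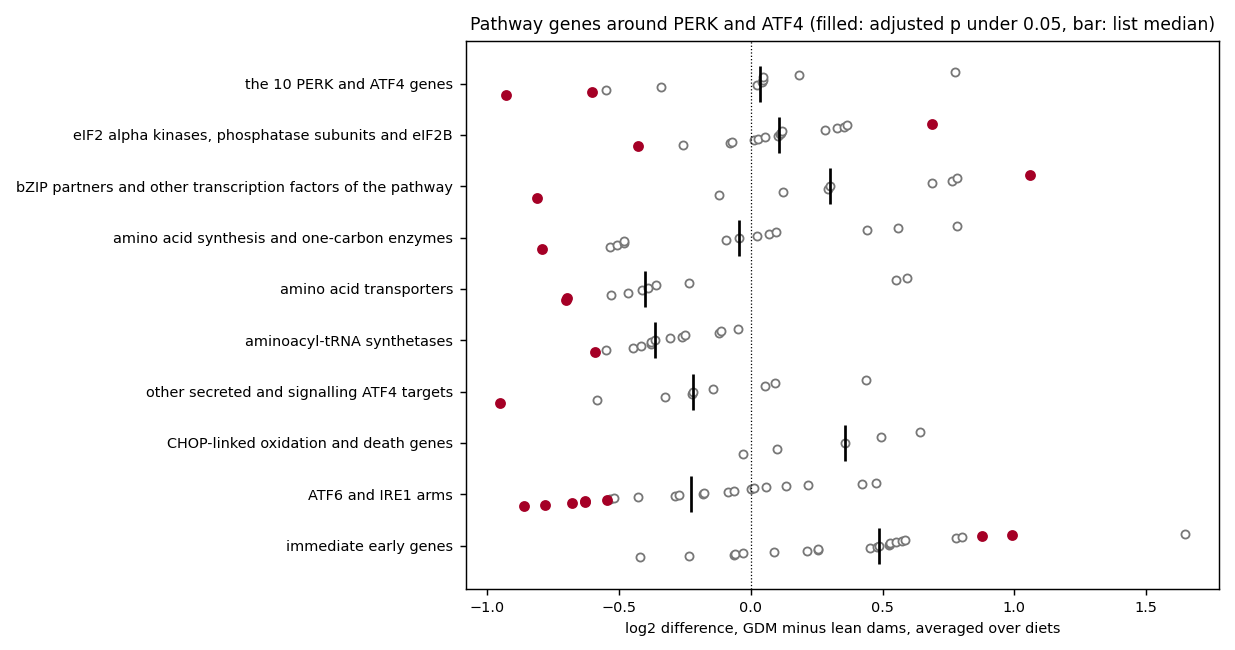
Log2 difference for GDM of the dam, averaged over diets, of each tested gene in the 10-gene set and in 9 lists of neighbouring pathways (points), with the list median as a vertical bar and filled points for an adjusted p under 0.05. All 13 points of the tRNA list lie below 0, while the 10 PERK and ATF4 genes spread on both sides of it.

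Of 45 pairs of the 10 genes 28 had a positive and 17 a negative Pearson r over the 12 libraries, and 0 passed an adjusted permutation p of 0.05. The highest Pearson r was that of Chac1 and Asns (r = 0.80, permutation p = 0.00227, adjusted 0.0539, Spearman rho = 0.77, permutation p = 0.00558), with r = 0.71 without the 2 libraries farthest from the median of Chac1. After subtracting the group means it was 0.31. Ddit3 and Atf4 (r = 0.75, permutation p = 0.00479, adjusted 0.0539, rho = 0.80, permutation p = 0.00269) had r = 0.79 after that subtraction and 0.69 without the 2 farthest libraries. Trib3 and Ppp1r15a (r = 0.77, permutation p = 0.00338, adjusted 0.0539, rho = 0.63, permutation p = 0.0317) had r = 0.79 and 0.49. The highest values after subtracting the group means were 0.91 for Atf4 and Ppp1r15a and 0.87 for Ddit3 and Trib3. Over the 12 libraries Atf4 and Ppp1r15a had r = 0.73 (permutation p = 0.00759, adjusted 0.0683, rho = 0.63, permutation p = 0.0320) and 0.67 without the 2 farthest libraries. Ddit3 and Trib3 had r = 0.61 (permutation p = 0.0349, adjusted 0.157, rho = 0.50, permutation p = 0.0984) and 0.56. Atf3 and Asns ran in opposite directions (r = −0.71, permutation p = 0.00451, adjusted 0.0539, rho = −0.74, permutation p = 0.00756), with r = −0.75 within groups. It was −0.52 without GDM-LF 2 and −0.31 without GDM-LF 2 and Lean-LF 1, so the size of r depended on those libraries. All pairs were measured on the same libraries, so they share depth and RNA quality.

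In all, 4 of 40 relations between the 10 genes and 4 library measures passed. Asns followed the length measure most closely (r = −0.91, permutation p = 6e-05, adjusted 0.00240, rho = −0.97, permutation p = 2e-05), with r = −0.89 within groups and −0.94 without the 2 farthest libraries. Chac1 had r = −0.84 with the same measure (permutation p = 0.00046, adjusted 0.00773, rho = −0.83, permutation p = 0.00126), −0.52 within groups and −0.78 without the 2 farthest libraries. Removing the trend with transcript length from each library left Chac1 at −1.04 (limma adjusted p = 0.0300) and Asns at −0.61 (0.0376). Atf3 followed the acinar level (r = 0.80, permutation p = 0.00058, adjusted 0.00773, rho = 0.64, permutation p = 0.0299), with 0.94 within groups and 0.73 without the 2 farthest libraries. It followed the immediate early genes too (r = 0.93, permutation p = 0.00407, adjusted 0.0407, rho = 0.67, permutation p = 0.0210), with 0.91 within groups and 0.67 without the 2 farthest libraries. Without GDM-LF 2 alone, r of Atf3 was 0.68 with the acinar level and 0.52 with the immediate early genes. When each relation was taken within groups 0 of the 40 passed, and without the 2 farthest libraries 1 of the 40 passed, that of Asns with the length measure. Chac1 had r = 0.71 with the rRNA share (permutation p = 0.0116, adjusted 0.0930, rho = 0.58, permutation p = 0.0517), with 0.55 within groups and 0.71 without the 2 farthest libraries.

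**Figure D4:**
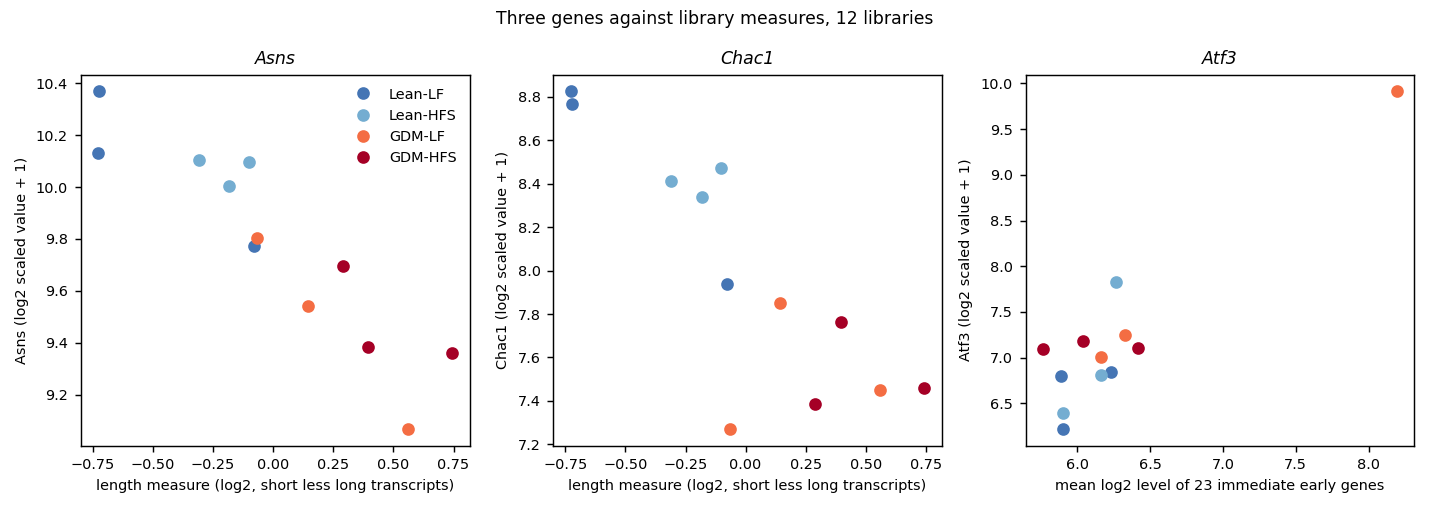
Log2 (scaled value + 1) of Asns and Chac1 against the length measure and of Atf3 against the mean log2 level of 23 immediate early genes, 1 point per library coloured by group. Asns declines along the length measure from lean to GDM libraries (r = −0.91), and the single Atf3 point at the upper right is GDM-LF 2.

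Among 11983 tested genes with an established symbol, those whose log2 level followed Chac1 most closely over the 12 libraries were Cipc (r = 0.98), Sesn2 (0.97) and Zdhhc9 (0.96). For Asns they were Ap1g1 (0.98), Stam2 (0.97) and Med14 (0.97). Sesn2, which fell with Chac1, had group means of 794 ± 275 in Lean-LF and 633 ± 80.1 in Lean-HFS against 355 ± 136 in GDM-LF and 374 ± 22.7 in the GDM-HFS group (SD, n = 3). Chac1 had means of 377, 339, 186 and 186 in the same order (SD 116, 15.8, 39.4 and 26.7, n = 3), and Asns had means of 1105, 1073, 725 and 717 (SD 224, 40.2, 179 and 96.3, n = 3). For both members the means of the 2 diets within a dam lay closer to each other than to those of the other dam.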

How the data were processed

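Islet RNA of 12 rat offspring was depleted of rRNA and sequenced from strand-specific libraries, per the labels' protocols. STAR 2.5.1b, HOMER 4.9 and DESeq2 are named in the submitters' processing notes. Exon reads were summed per gene on build rn5, over both strands, per the file headers. The deposited table holds depth-scaled signal: the header names FPKM, but values were not divided by length, and in every library they were whole multiples of 1 step, which gave back whole reads for 100% of values of up to 1000 reads (tolerance 0.1). The log-scale test planned for FPKM was kept.

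Values were divided by median-ratio factors (0.83 to 1.27). Genes with a mean of at least 1 were fitted on log2(scaled value + 1) with limma 3.58.1 in R 4.3.3, 1 mean per group, mean-variance trend, Benjamini-Hochberg adjustment within each of 7 contrasts and a threshold of 0.05. Fold changes are on that scale, which understates changes of low genes. edgeR 4.0.16, DESeq2 1.42.0 (on the recovered reads), other settings, covariates and left-out libraries were run as alternatives. The fits were tested on simulated data that held no differences between libraries in rRNA share, transcript length or acinar level. That test therefore does not bear on such differences. Correlations used 100000 permutations and, within groups, all 1296 rearrangements. 0 columns belonged to no sample.

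The members and lists were chosen with earlier results of these data known. Every member is named. Of each list the text names up to 4 largest rises and 4 largest falls past the threshold for GDM of the dam averaged over diets, or the 2 of lowest p where none passed, and for called members the 3 genes of highest r. The list symbols Ero1l, Ero1lb, Nfe2l1, Krt7 and Emr1 matched no entry and were not analysed here. Groups came from the library titles. The meaning of the letter K in 3 titles (GDM-LF 1, GDM-LF 2 and GDM-HFS 3) is not stated in the labels.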

Additional observations from a re-analysis of the deposited data

How the results depend on the processing

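Chac1 kept its direction in 27 of 27 alternatives and its call in 25 (log2 −1.07 to −0.56), and Asns its direction in 27 and its call in 17 (−0.69 to −0.44). The 3 K libraries are all from GDM dams, and without them GDM-LF is a single library assumed to vary like the other groups, so letter and dam cannot be told apart. The rRNA share differs between the dams, so a fit with it as covariate has less to separate them. The cause of each change below was not tested. Depth limits none of the 10 genes to under 121 reads.

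For GDM of the dam averaged over diets 2 members passed. The number was 1 with no rescaling, with no mean-variance trend and with the acinar level as covariate, 0 with the rRNA share as covariate and without the K libraries, and 1 to 2 with 1 library left out. On LF diet, where 0 passed, it was 1 with a mean of at least 5, with no rescaling and with TMM. It was 2 with library weights and with DESeq2, and 0 to 2 with 1 library left out (Lean-LF 3 and GDM-LF 3 being those that gave calls). Over all genes the main fit called 105 higher and 90 lower on LF diet. The calls were 113 and 118 with a mean of at least 5, 80 and 406 with no rescaling and 108 and 97 with TMM. They were 884 and 884 with library weights and 925 and 759 with DESeq2. Without Lean-LF 3 they were 837 and 889, and without GDM-LF 3 898 and 782. On HFS diet the number of members was 1 with DESeq2 and 0 to 1 with 1 library left out (1 without Lean-LF 3). Over all genes DESeq2 called 196 higher and 56 lower there, and the fit without Lean-LF 3 126 and 26. For the weaning diet in offspring of GDM dams 1 member passed with the acinar level as covariate, Atf3, lower on HFS. That fit called 4 genes higher and 40 lower in all. GDM-LF 2 had both the highest Atf3 value and the highest acinar level of the libraries. Of relations between members and library measures 4 passed, 0 within groups and 1 without the 2 farthest libraries.

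Over all genes, the 1426 called for GDM of the dam were 674 with no rescaling, 671 with no trend, 2568 with library weights, 545 with the length trend removed, 389 with the acinar level, 0 with the rRNA share, 2237 with DESeq2, 1487 with edgeR, 0 without the K libraries and 183 (without Lean-LF 2) to 2471 (without Lean-LF 3) with 1 library left out. On LF diet the 195 called became 0 to 1768, and on HFS diet the 1 called became 0 to 252. With no rescaling, 429 were higher and 245 lower, beside 756 and 670, and the median of all genes shifted to 0.42 for the interaction.

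The titles number the libraries of each group, but nothing ties equal numbers together, and 5 of 18 same-numbered pairs had deviations correlated above 0.1 (r −0.50 to 0.20). With that number as a replicate block 2 members passed for GDM of the dam, Chac1 (adjusted p = 0.0152) and Asns (0.0216), and 1140 genes in all. 5 of 12 libraries correlated best with their own number.

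Changes of sign concerned only differences that did not pass. For GDM of the dam the log2 value was −0.090 for Ddit4 with DESeq2 and −0.12 with edgeR. With the length trend removed it was −0.11 for Atf4, −0.19 for Ddit3 and −0.044 for Ddit4. With the acinar level it was −0.077 for Eif2ak3 and −0.052 for Slc7a11. With the rRNA share it was −0.12 for Atf4, −0.41 for Ddit3, −0.0016 for Eif2ak3 and −0.28 for Slc7a11. It was −0.0065 for Eif2ak3 without the K libraries. With 1 library left out it ranged over −0.053 to 0.16 (Atf4), −0.049 to 0.13 (Eif2ak3), −0.13 to 0.30 (Ddit4) and −0.069 to 0.11 (Slc7a11).

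For the weaning diet, Eif2ak3 was 0.0034 with DESeq2, 0.10 with the length trend removed, 0.082 with library weights, 0.011 with the rRNA share and 0.22 without the K libraries. Ddit3 was −0.059 with no rescaling, −0.056 with the length trend removed and −0.14 without the K libraries. Atf4 was 0.059 with library weights and 0.044 with the rRNA share. Atf3 was 0.039 with library weights and 0.14 without the K libraries, and Asns 0.10 with the acinar level. With 1 library left out the diet difference ranged over −0.11 to 0.076 (Asns), −0.53 to 0.20 (Atf3), −0.092 to 0.088 (Eif2ak3), −0.19 to 0.036 (Chac1), −0.034 to 0.23 (Ddit3) and −0.12 to 0.089 (Atf4).

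For the interaction, values with no rescaling were 0.31 (Atf4), 0.30 (Eif2ak3) and 0.17 (Ppp1r15a), and with library weights 0.0070 (Eif2ak3) and 0.0010 (Ppp1r15a). Asns was −0.0030 with the acinar level and Ddit3 −0.55 with the rRNA share. Without the K libraries it was −0.17 (Chac1), −0.27 (Ddit3), 0.31 (Eif2ak3) and −0.23 (Trib3). With 1 library left out it ranged over −0.17 to 0.20 (Asns), −0.73 to 0.062 (Ppp1r15a), −0.32 to 0.035 (Eif2ak3), −0.11 to 0.42 (Ddit3), −0.33 to 0.089 (Atf4) and −0.043 to 0.40 (Chac1).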
